A study of Homo sapiens with 12 samples.

Results

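The genes described here are 49 genes that carry cells from G1 into S phase and copy DNA, out of 18132 genes measured. They were listed by symbol, and all 49 of 49 were on the array. Each was read through 1 probe set, the one with the highest mean over the 12 arrays among probe sets with a single gene symbol. Monolayers of A549, an established human lung adenocarcinoma line, made up 4 groups: an untreated control, cells given heat shock (2 h of treatment), cells wounded alone (4 h), and cells given the heat shock first and the wounds after it. Each group had 3 Affymetrix PrimeView arrays, and all cells grew in RPMI medium with serum on uncoated plastic. When the cells that were heat shocked alone were collected is not given in the sources used here, so their time after the heat shock may differ from that of cells wounded after it. The wounded monolayers were multiply wounded and lysed whole, so cells at a wound edge and cells away from it were read together. Whether the 3 arrays of a group stand for separate cultures is not stated, and the p-values then measure only the spread between these samples, which may be technical.

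In the textbook account, cyclin D with CDK4 or CDK6 and then cyclin E with CDK2 phosphorylate the retinoblastoma protein and release E2F factors, which turn on genes needed for S phase. Origins are licensed in G1, when ORC, CDC6 and CDT1 load the MCM2-7 helicase, and they fire in S phase when the kinase CDC7-DBF4 and CDKs bring in CDC45 and GINS. Epithelial monolayers close a scratch mainly by spreading and migration in the first hours, and heat shock is known to slow or stop the cell cycle in many cell lines. In bulk RNA, fewer cells in S phase and less RNA per cell cannot be told apart.

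Promoter windows are printed because many S phase genes are textbook E2F targets and these genes moved largely together. The windows came from RefSeq on GRCh38.p14 and run from 250 bases before to 50 bases after a gene's start, 300 bases in all. The table held a window for 42 of the 49 genes, 54 windows in all, and none for CCND1, CCNE2, CDK2, E2F8, MCM4, MCM5 or GINS4. The letters TTTCCCGC, TTTGGCGC, TTTCGCGC and TTTGCCGC, the forms of an E2F motif, were searched on both strands, where they may overlap one another. They occurred in 22 of the 54 windows (40.7%), against 3.31% of all 35116 windows and 4.15% of the 20403 windows of genes tested. The shown windows were picked from the 12 members with the largest called falls after heat shock and wounding. The E2F letters are in capitals. POLE2, E2F2 and CDC7 were the only ones of these members with the letters in a window. CCNE1 is shown as the largest fall with a window but none of the letters. ORC1, E2F7, RRM2, FEN1, SKP2 and MCM10 also had none, and CCNE2 and E2F8 had no window. CCNE1 holds none of these letters (chr19:29811741-29812040, plus strand). POLE2 holds 1 match (chr14:49688165-49688464, minus strand), E2F2 holds 1 (chr1:23531184-23531483, minus strand), and the shown window of 2 for CDC7 holds 2 (chr1:91500862-91501161, plus strand).
CCNE1: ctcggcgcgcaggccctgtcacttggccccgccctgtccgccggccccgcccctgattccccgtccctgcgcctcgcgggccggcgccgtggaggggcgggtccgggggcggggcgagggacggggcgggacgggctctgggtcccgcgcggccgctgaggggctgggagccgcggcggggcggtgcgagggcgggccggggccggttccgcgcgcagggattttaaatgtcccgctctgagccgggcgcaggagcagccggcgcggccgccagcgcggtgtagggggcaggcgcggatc
POLE2: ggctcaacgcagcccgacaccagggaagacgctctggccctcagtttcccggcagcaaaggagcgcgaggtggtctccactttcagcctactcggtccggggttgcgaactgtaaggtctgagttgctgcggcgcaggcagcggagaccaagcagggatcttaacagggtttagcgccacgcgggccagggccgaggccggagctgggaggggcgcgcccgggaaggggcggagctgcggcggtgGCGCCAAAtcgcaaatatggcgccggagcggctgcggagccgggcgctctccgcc
E2F2: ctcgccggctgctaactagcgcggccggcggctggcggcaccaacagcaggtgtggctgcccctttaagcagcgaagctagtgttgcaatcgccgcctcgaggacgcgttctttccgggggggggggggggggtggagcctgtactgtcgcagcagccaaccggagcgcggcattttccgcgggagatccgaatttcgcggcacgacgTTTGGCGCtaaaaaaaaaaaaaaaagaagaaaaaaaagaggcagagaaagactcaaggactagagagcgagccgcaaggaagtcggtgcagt
CDC7: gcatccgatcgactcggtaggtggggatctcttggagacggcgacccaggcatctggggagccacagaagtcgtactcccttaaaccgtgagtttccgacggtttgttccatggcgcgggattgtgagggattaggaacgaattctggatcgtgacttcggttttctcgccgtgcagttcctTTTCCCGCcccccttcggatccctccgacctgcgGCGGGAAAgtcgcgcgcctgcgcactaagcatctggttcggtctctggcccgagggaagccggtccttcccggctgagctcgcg
A match is a description of letters and not a site. Other letters were counted in the same way. CCAAT occurred in 51.9% of the members' windows and 34.6% of all windows, and GGGCGG in 74.1% and 45.0%. The heat shock element, taken as an inverted pair of the unit NGAAN, occurred in 1.85% and 6.71%. Among the 21 members with E2F letters the median difference between heat shocked and wounded cells and control was -0.52 (log2), with a range from -0.94 to -0.01. Among the 21 with a window but no such letters it was -0.53, with a range from -1.01 to -0.12. The ranges with and without these letters thus overlapped widely. A window of 300 bases without these exact letters does not show that a gene is no E2F target. The part of E2F factors was not tested.

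The values are log2 levels, so a difference of -1 is a halving. The array medians lay between 5.3 and 5.32. Replicate 2 of heat shock and wounding stood apart, with a narrower interquartile range than the other arrays (3.98 against 4.13 to 4.24) and the lowest within-group correlations (0.994 and 0.995). The total counts of members called in cells with both treatments are given with and without it. Counts by role after both are given with it. Without it, 4 E2F, 5 MCM, 4 polymerase and primase and 3 chromatin genes were called lower after both. With it these counts were 3, 6, 5 and 4, and those of the other roles were the same. Most other counts that use it are given only with it. The 6 epithelial and A549 markers had control means from 9.13 to 13.83. The 11 leukocyte and endothelial markers lay between 2.27 and 5.93, and the 6 fibroblast markers between 2.37 and 5.13. The summed log2 level of the endothelial markers was 27.58 to 27.87 in control. After heat shock and wounding it was 29.68 on replicate 2 and 27.83 and 28.60 on replicates 1 and 3, and its part in the results was not tested. No member had a mean level below 4.92, the upper quartile of those 11 leukocyte and endothelial markers in control.

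The replication genes were lower in every treated group, least after wounding alone and most after both treatments. With limma over all genes and Benjamini-Hochberg adjustment, called at an adjusted p under 0.05, 29 of the 49 fell after heat shock, against 7.92% of all genes called lower. None of the 49 rose, against 4.93% of all genes. After wounding 11 fell, against 1.31% of all genes, and 0 rose, against 2.27%. After both treatments 44 fell, against 14.4% of all genes, and 0 rose, against 8.66%. The median difference of the members from control was -0.32 after heat shock, -0.21 after wounding alone and -0.52 after both, where the medians over all genes were -0.03, -0.03 and -0.01. These 3 comparisons share the control arrays. The falls were modest in size. At 1.5-fold or more, 8 members fell after heat shock, 1 after wounding alone and 18 after both, and 3 members (CCNE2, E2F8 and CCNE1) fell by over 2-fold after both.

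The count after wounding was the least firm of the 3. It was 5, 7 or 4 without control replicate 1, 2 or 3, 7 without heat shock replicate 2, and 3, 4 or 13 without wounded replicate 1, 2 or 3. With array weights it was 24. The calls of SKP2, MCM10 and SLBP held in each fit that left out 1 array. The count after heat shock was 19 without heat shock replicate 1, and 10 of its 29 calls (E2F2, MCM3, MCM6, MCM7, POLA2, RFC2, RFC5, LIG1, TYMS and TK1) were lost in at least 1 fit that left out an array. Without replicate 2 of heat shock and wounding, 42 members fell after both treatments, with a median of -0.54. Of the 44 calls after both, 40 held without any 1 array, and MCM7, POLA1, SLBP and CHAF1B were the 4 that did not.

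Array by array, the control arrays and the arrays of both treatments each stood apart, while the heat shock and wounded arrays overlapped. The median member stood at -0.01, -0.04 and 0.05 (log2) from the control mean on the 3 control arrays, and at -0.39, -0.34 and -0.23 on the heat shock arrays. On the wounded arrays it stood at -0.28, -0.27 and -0.12, and on the arrays of both treatments at -0.52, -0.52 and -0.54. Wounded replicate 3 was thus the treated array nearest to control, with 31 members below the lowest control array where the other wounded arrays had 46 each. All 3 heat shock arrays lay below all 3 control arrays for 40 members, against 20.8% of all genes. The like counts were 27 members after wounding, against 13.9%, and 45 after both, against 22.7%. In the order of group means, 46 members were highest in control and 44 were lowest after both treatments. The order control, wounded, heat shock, both held for 35 members, and control, heat shock, wounded, both for 8.

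**Figure D1:**
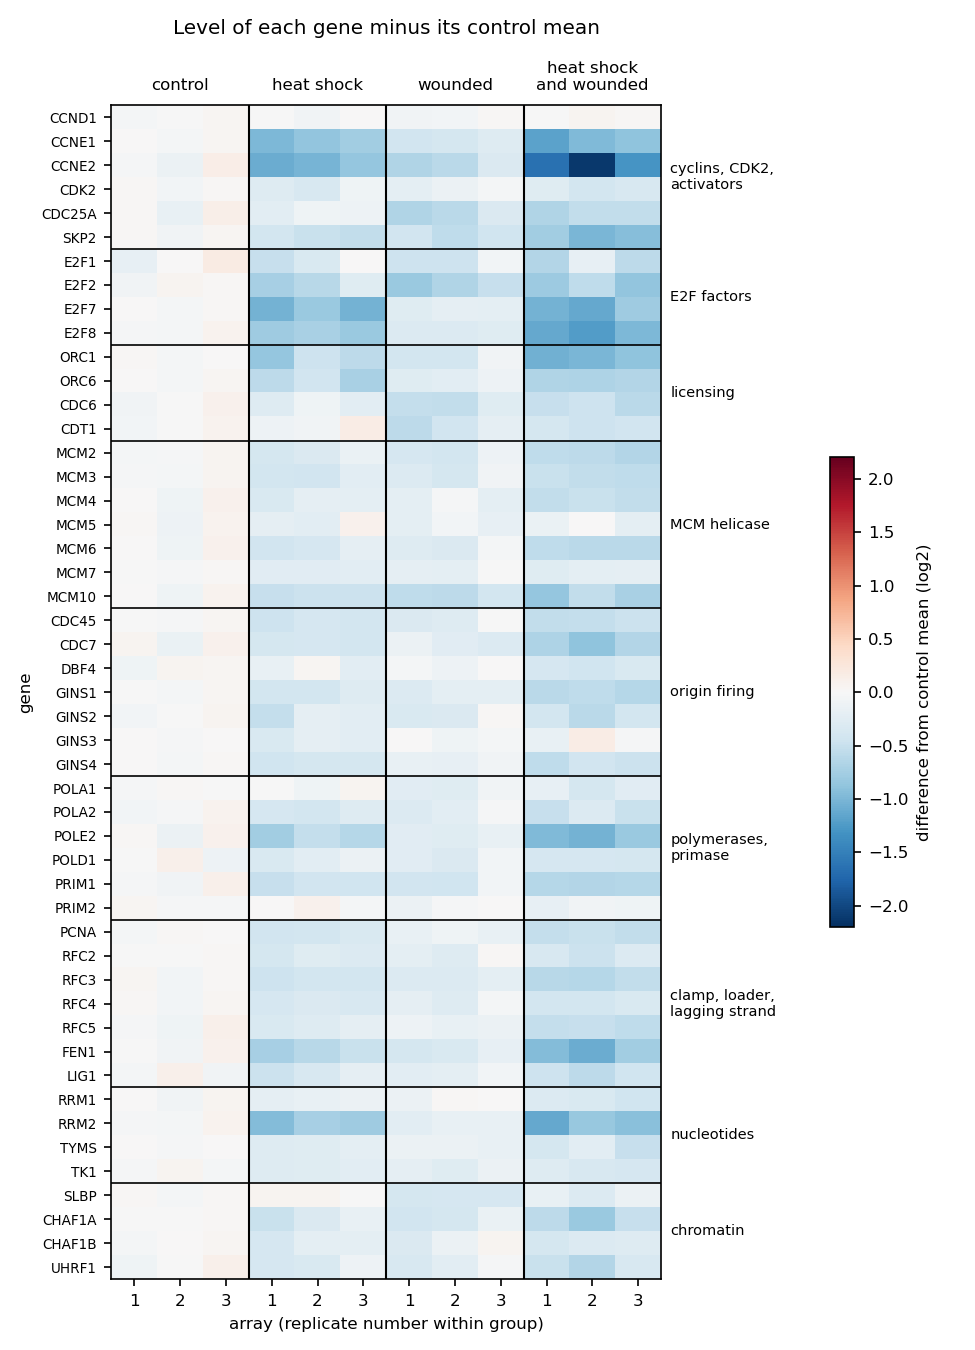
Each cell is the log2 level of 1 gene on 1 array minus the gene's mean over the 3 control arrays, with blue for lower and red for higher; rows are the 49 genes grouped by role, and columns the 12 arrays. The columns of both treatments are the bluest, with a median of -0.52 to -0.54, wounded replicate 3 is pale at -0.12, and CCND1, MCM5, GINS3 and PRIM2 show little colour after both treatments.

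Among the cyclins, the kinase and its activators, the E cyclins and SKP2 had the largest falls after heat shock and after both, while cyclin D1 did not pass the test. Of these 6 genes, 3 fell after heat shock, 3 after wounding alone and 5 after both, with medians of -0.36, -0.42 and -0.74. CCND1 encodes cyclin D1, the growth factor responsive partner of CDK4 and CDK6. Its log2 levels, here and below in the order of replicates 1, 2 and 3, were 11.37, 11.40 and 11.45 in control, 11.39, 11.33 and 11.42 after heat shock, 11.32, 11.35 and 11.43 after wounding, and 11.39, 11.46 and 11.43 after both. All 4 groups overlapped, and the difference after both was 0.02 ± 0.06 (SE; 95% interval -0.11 to 0.15).

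CCNE1 encodes cyclin E1, which activates CDK2 for S phase entry. CCNE1 stood at 8.98, 8.93 and 9.01 in control, 7.98, 8.10 and 8.20 after heat shock, 8.55, 8.58 and 8.69 after wounding, and 7.79, 8.01 and 8.08 after both. The wounded arrays lay between control and the 2 heat shocked groups, and the groups of heat shock alone and of both overlapped each other. It was 1.84-fold lower after heat shock (-0.88 ± 0.09, adjusted p = 4.22e-05), 1.29-fold lower after wounding (-0.36 ± 0.09, adjusted p = 0.0345) and 2.02-fold lower after both (-1.01 ± 0.09, adjusted p = 4.14e-06). The wounding call of CCNE1 was lost in 6 of the 12 fits that left out 1 array, with an adjusted p of up to 0.152. CCNE2, which encodes cyclin E2, had levels of 7.37, 7.25 and 7.54 in control, 6.29, 6.37 and 6.53 after heat shock, 6.72, 6.79 and 7.07 after wounding, and 5.75, 5.27 and 6.09 after both. No group overlapped another, and the fall after both was the largest among the 49 genes, at 3.21-fold (-1.68 ± 0.17, adjusted p = 1.78e-05). The lowest array was replicate 2, and without it the difference was -1.46 ± 0.13 (adjusted p = 1.71e-05). After wounding alone CCNE2 differed by -0.53 ± 0.17 and did not pass the test (adjusted p = 0.151), although its wounded arrays lay below every control array.

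CDK2, the kinase of both E cyclins, stood at 7.49, 7.39 and 7.47 in control, 7.17, 7.11 and 7.37 after heat shock, 7.23, 7.32 and 7.40 after wounding, and 7.18, 7.05 and 7.10 after both. It fell only modestly after both, by 1.27-fold (-0.34 ± 0.08, adjusted p = 0.00749), and the wounded arrays overlapped control. SKP2 encodes the F-box protein that marks the CDK inhibitor CDKN1B for destruction. SKP2 levels were 6.82, 6.71 and 6.83 in control, 6.39, 6.29 and 6.25 after heat shock, 6.36, 6.24 and 6.35 after wounding, and 6.02, 5.79 and 5.84 after both. It fell by 0.48 ± 0.08 after heat shock and by 0.47 ± 0.08 after wounding (adjusted p = 0.00148 and 0.00377), and the arrays of both treatments lay below all others, at -0.91 ± 0.08 (adjusted p = 4.04e-06). CDC25A encodes the phosphatase that removes inhibitory phosphates from CDK2. CDC25A had 7.67, 7.48 and 7.77 in control, 7.41, 7.54 and 7.52 after heat shock, 6.99, 7.05 and 7.32 after wounding, and 6.98, 7.11 and 7.10 after both. Heat shocked cells overlapped control, while wounded cells and cells with both treatments lay below both of those groups. Its differences from control were -0.15 ± 0.10 after heat shock (adjusted p = 0.402), -0.52 ± 0.10 after wounding (adjusted p = 0.0101) and -0.58 ± 0.10 after both (adjusted p = 0.000973). The wounding call of CDC25A was lost without control replicate 1 or 3 or wounded replicate 1 or 2, with an adjusted p of up to 0.0611.

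**Figure D2:**
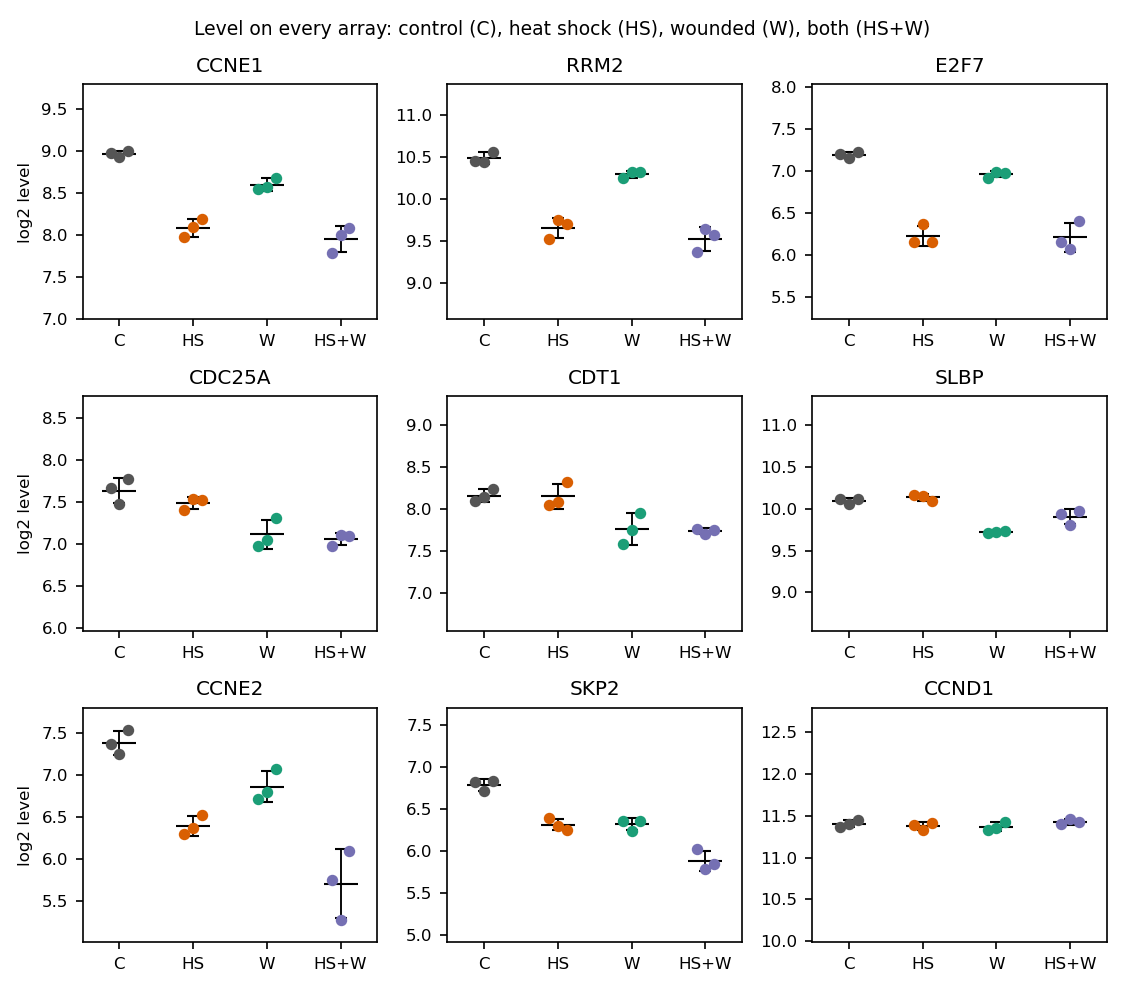
Log2 level of 9 genes on every array (points) with the group mean and SD (bars, n = 3) for control (C), heat shock (HS), wounded (W) and both (HS+W); each panel spans the same number of log2 units. CCNE1, RRM2 and E2F7 are lowest in the 2 heat shocked groups, CDC25A and CDT1 in the 2 wounded groups and SLBP after wounding alone, while CCNE2 and SKP2 are lowest after both and CCND1 is level.

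The E2F factors differed among themselves, and their median turned on the probe set read for E2F7. Of the 4 genes, 3 fell after heat shock, 2 after wounding alone and 3 after both, with medians of -0.66, -0.31 and -0.86. With the second probe set of E2F7 the medians after heat shock and after both were -0.41 and -0.61. E2F1 and E2F2 activate S phase genes. E2F1 stood at 6.70, 6.89 and 7.06 in control, 6.37, 6.54 and 6.89 after heat shock, 6.43, 6.43 and 6.82 after wounding, and 6.23, 6.70 and 6.30 after both. Its arrays spread widely within every group, and no difference passed the test (after both -0.47 ± 0.16, adjusted p = 0.054). The high array after both was replicate 2, and without it the difference was -0.62 ± 0.16 (adjusted p = 0.0183). E2F2 stood at 6.75, 6.89 and 6.87 in control, 6.10, 6.23 and 6.56 after heat shock, 6.03, 6.17 and 6.32 after wounding, and 6.04, 6.28 and 5.97 after both. The 3 treated groups overlapped one another and lay below control. E2F2 had the largest fall of any member after wounding, 1.58-fold (-0.66 ± 0.12, adjusted p = 0.00832; 0.0507 without wounded replicate 1). It fell by 0.54 ± 0.12 after heat shock (adjusted p = 0.0112; 0.0546 without heat shock replicate 1) and by 0.74 ± 0.12 after both (adjusted p = 0.000739).

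E2F7 and E2F8 encode the atypical E2Fs, which repress E2F targets later in S phase. E2F8 stood at 7.24, 7.23 and 7.34 in control, 6.49, 6.56 and 6.45 after heat shock, 6.97, 6.96 and 7.0 after wounding, and 6.14, 6.03 and 6.28 after both. Its 4 groups formed separate steps, and it was 1.71-fold lower after heat shock (adjusted p = 2.83e-05), 1.22-fold lower after wounding (adjusted p = 0.0418) and 2.17-fold lower after both (adjusted p = 5.19e-07). The wounding call of E2F8 was lost in 9 of 12 fits that left out 1 array. E2F7 stood at 7.20, 7.15 and 7.22 in control, 6.16, 6.37 and 6.15 after heat shock, 6.92, 6.99 and 6.98 after wounding, and 6.16, 6.07 and 6.41 after both. Heat shocked cells with and without wounding overlapped, at -0.98 and -0.97 ± 0.09 from control (adjusted p = 7.87e-06 and 2.83e-05), and the wounded difference of -0.23 ± 0.09 did not pass (adjusted p = 0.258). The probe sets of E2F7 disagreed. Its second probe set, with a lower mean level, differed by -0.02 ± 0.12 after heat shock and 0.08 ± 0.12 after both (adjusted p = 0.943 and 0.698), so the fall of E2F7 rests on 1 of its 2 probe sets.

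All 4 licensing genes fell after both treatments, with a median of -0.59, while ORC1 and ORC6 fell after heat shock and CDC6 and CDT1 after wounding. ORC1 and ORC6 encode subunits of the complex that marks origins. ORC1 stood at 6.81, 6.74 and 6.78 in control, 5.93, 6.31 and 6.20 after heat shock, 6.37, 6.37 and 6.70 after wounding, and 5.71, 5.76 and 5.89 after both. Its groups did not overlap, with differences of -0.63 ± 0.11 after heat shock (adjusted p = 0.00261), -0.30 ± 0.11 after wounding (adjusted p = 0.228) and -0.98 ± 0.11 after both (adjusted p = 3.81e-05). ORC6 fell by 0.57 ± 0.08 after heat shock (adjusted p = 0.00047) and by 0.66 ± 0.08 after both (adjusted p = 5.83e-05). CDT1 and CDC6 encode the loaders of MCM2-7. CDT1 stood at 8.09, 8.14 and 8.23 in control, 8.04, 8.08 and 8.32 after heat shock, 7.58, 7.74 and 7.95 after wounding, and 7.76, 7.69 and 7.74 after both. Heat shocked arrays spanned the control range and both wounded groups lay below it. CDT1 differed by -0.01 ± 0.10 after heat shock (adjusted p = 0.97), -0.40 ± 0.10 after wounding (adjusted p = 0.045) and -0.42 ± 0.10 after both (adjusted p = 0.00759). Its wounding call was lost in 9 of 12 fits that left out 1 array, with an adjusted p of up to 0.207. CDC6 differed by -0.20 ± 0.09 after heat shock (adjusted p = 0.159) and fell by 0.45 ± 0.09 after wounding (adjusted p = 0.0109) and by 0.52 ± 0.09 after both (adjusted p = 0.000851). The wounding call of CDC6 was lost in 3 fits of that kind, without control replicate 3 or wounded replicate 1 or 2. Compared directly, heat shocked and wounded cells differed in ORC6 (-0.36 ± 0.08, adjusted p = 0.00964) and CDT1 (0.39 ± 0.10, adjusted p = 0.0241), while ORC1 (-0.33 ± 0.11, adjusted p = 0.0792) and CDC6 (0.25 ± 0.09, adjusted p = 0.0957) did not pass.

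Apart from MCM5, which was read at a dim level, the MCM helicase genes fell together after both treatments. Of MCM2 to MCM7 and MCM10, 4 of 7 fell after heat shock, 1 after wounding alone and 6 after both, with medians of -0.28, -0.22 and -0.53. MCM2, a helicase subunit, stood at 9.20, 9.22 and 9.30 in control, 8.86, 8.92 and 9.10 after heat shock, 8.88, 8.84 and 9.13 after wounding, and 8.68, 8.67 and 8.59 after both. The heat shocked and wounded arrays overlapped each other between control and the combined group, and only the combined difference passed, at -0.59 ± 0.09 (adjusted p = 0.000336). MCM3, MCM4 and MCM6 fell by 0.53 to 0.58 after both, and MCM7 by 0.23 ± 0.07 (adjusted p = 0.0265). The call of MCM7 after both was lost without any 1 of the control arrays and without replicate 1 or 2 of the combined group. MCM5 differed by -0.12 ± 0.10 after both (adjusted p = 0.451). Its mean level of 5.4 lay within the control range of the leukocyte and endothelial markers (2.27 to 5.93). The other genes of this list had means of 8.4 to 11.6, so a fall of MCM5 could have been missed. MCM10, which helps turn the loaded helicase into an active one, stood at 8.87, 8.77 and 8.94 in control, 8.36, 8.39 and 8.39 after heat shock, 8.30, 8.28 and 8.45 after wounding, and 8.02, 8.32 and 8.14 after both. Every treated array lay below control, and the heat shocked and wounded arrays overlapped. MCM10 fell by 0.48 ± 0.08 after heat shock (adjusted p = 0.0026) and by 0.52 ± 0.08 after wounding (adjusted p = 0.00392). The fall after both was 0.70 ± 0.08 (adjusted p = 6.94e-05).

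Of the 7 origin firing genes, 4 fell after heat shock, 1 after wounding alone and 6 after both, with medians of -0.37, -0.21 and -0.49. CDC7 encodes the kinase that phosphorylates loaded MCM. CDC7 stood at 6.75, 6.54 and 6.79 in control, 6.30, 6.32 and 6.29 after heat shock, 6.56, 6.43 and 6.39 after wounding, and 6.0, 5.81 and 6.05 after both. The combined group lay below every other array, at -0.74 ± 0.09 from control (adjusted p = 5.18e-05), and the wounded arrays overlapped control. DBF4, the activating subunit of CDC7, fell by 0.38 ± 0.08 after both (adjusted p = 0.00352) but neither single treatment was called. CDC45 and the GINS genes encode the partners that complete the active helicase. CDC45, GINS1 and GINS4 fell after heat shock and after both, and GINS2 after both. GINS1 was the gene called after wounding, and that call was lost in 10 of 12 fits that left out 1 array, with an adjusted p of up to 0.208. GINS3 was the 1 GINS gene not called after both. It stood at 8.01, 7.97 and 8.02 in control, 7.67, 7.80 and 7.78 after heat shock, 8.02, 7.91 and 7.95 after wounding, and 7.84, 8.16 and 7.97 after both. Its heat shocked arrays lay below all other arrays, yet no difference from control passed (heat shock -0.25 ± 0.08, adjusted p = 0.0577; both -0.01 ± 0.08, adjusted p = 0.957). Its highest array after both was replicate 2, and without it that difference was -0.09 ± 0.07 (adjusted p = 0.437).

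Of the 6 polymerase and primase genes, 3 fell after heat shock, 0 after wounding alone and 5 after both, with medians of -0.29, -0.20 and -0.40. POLE2, an accessory subunit of the leading strand polymerase epsilon, had the largest falls of the 6 after heat shock and after both. POLE2 stood at 8.45, 8.29 and 8.51 in control, 7.64, 7.90 and 7.79 after heat shock, 8.16, 8.15 and 8.26 after wounding, and 7.45, 7.38 and 7.59 after both. No group overlapped another, and the differences were -0.64 ± 0.09 after heat shock (adjusted p = 0.000463), -0.22 ± 0.09 after wounding (adjusted p = 0.255) and -0.94 ± 0.09 after both (adjusted p = 8.28e-06). Of the primase subunits, PRIM1 fell by 0.64 ± 0.10 after both (adjusted p = 0.00039) and PRIM2 was not called (-0.12 ± 0.06, adjusted p = 0.232). POLA1, the catalytic subunit of polymerase alpha, differed by -0.01 ± 0.08 after heat shock and fell by 0.27 ± 0.08 after both (adjusted p = 0.0209, lost without any 1 control array or combined replicate 2). POLD1, the catalytic subunit of polymerase delta, fell by 0.37 ± 0.08 after both (adjusted p = 0.00587).

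The sliding clamp, its loader and the lagging strand enzymes fell as a whole after heat shock. All 7 of 7 fell after heat shock and after both, and 1, RFC3, after wounding, with medians of -0.34, -0.52 and -0.16 in that order. The wounding call of RFC3 was lost without control replicate 1 or 3 or wounded replicate 1 or 2, with an adjusted p of up to 0.108. PCNA, the clamp that holds polymerases on DNA, stood at 12.39, 12.46 and 12.44 in control, 12.01, 12.02 and 12.10 after heat shock, 12.26, 12.34 and 12.27 after wounding, and 11.91, 11.95 and 11.88 after both. The 4 groups were separate steps, at -0.39 ± 0.06 after heat shock (adjusted p = 0.001), -0.14 ± 0.06 after wounding (adjusted p = 0.297) and -0.52 ± 0.06 after both (adjusted p = 4e-05). The loader genes RFC2, RFC3, RFC4 and RFC5 fell by 0.27 to 0.42 after heat shock and by 0.38 to 0.60 after both. FEN1 encodes the nuclease that trims Okazaki fragment flaps. FEN1 stood at 10.05, 9.99 and 10.15 in control, 9.34, 9.46 and 9.57 after heat shock, 9.68, 9.74 and 9.89 after wounding, and 9.11, 8.98 and 9.29 after both. These groups did not overlap, and FEN1 was 1.52-fold lower after heat shock (adjusted p = 0.00127) and 1.92-fold lower after both (adjusted p = 1.69e-05). LIG1, the ligase that seals Okazaki fragments, fell by 0.34 ± 0.09 and 0.48 ± 0.09 (adjusted p = 0.0221 and 0.00132). The heat shock calls of RFC2, RFC5 and LIG1 were each lost without heat shock replicate 1, and in 2 or 3 other fits that left out 1 array.

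The nucleotide supply genes fell after heat shock and after both, and none was called after wounding alone. Of 4 genes, 3 fell after heat shock, 0 after wounding alone and 4 after both, with medians of -0.26, -0.17 and -0.36. RRM2 and RRM1 encode the subunits of ribonucleotide reductase, which makes deoxyribonucleotides, and RRM2 is the one whose level follows S phase. RRM2 stood at 10.45, 10.43 and 10.56 in control, 9.52, 9.75 and 9.70 after heat shock, 10.24, 10.31 and 10.32 after wounding, and 9.36, 9.64 and 9.56 after both. The heat shocked groups overlapped each other and lay well below wounded and control arrays, at -0.83 ± 0.09 (adjusted p = 6.69e-05) and -0.96 ± 0.09 (adjusted p = 6.35e-06), while wounding gave -0.19 ± 0.09 (adjusted p = 0.363). A second RRM2 probe set fell by 0.54 ± 0.07 after heat shock and by 0.66 ± 0.07 after both. RRM1 stood at 10.58, 10.50 and 10.63 in control, 10.37, 10.41 and 10.44 after heat shock, 10.44, 10.59 and 10.57 after wounding, and 10.28, 10.24 and 10.14 after both. Only the combined group was called, at -0.35 ± 0.07 (adjusted p = 0.00225), and the wounded arrays overlapped control. TYMS, which makes thymidylate, and TK1, which salvages thymidine, fell by 0.26 and 0.27 after heat shock and by 0.37 and 0.34 after both.

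Of the 4 chromatin genes, 0 were called lower after heat shock, 1 after wounding alone and 4 after both. Their medians were -0.27, -0.26 and -0.41. SLBP encodes the protein that binds the stem-loop of replication dependent histone mRNAs. SLBP stood at 10.11, 10.06 and 10.11 in control, 10.16, 10.15 and 10.09 after heat shock, 9.71, 9.73 and 9.73 after wounding, and 9.94, 9.80 and 9.97 after both. The heat shocked arrays overlapped control, the wounded arrays were the lowest, and the combined group lay between. SLBP differed by 0.04 ± 0.06 after heat shock (adjusted p = 0.772), -0.37 ± 0.06 after wounding (adjusted p = 0.00447) and -0.19 ± 0.06 after both (adjusted p = 0.0387). The last call was lost in 8 of 12 fits that left out 1 array, with an adjusted p of up to 0.139. CHAF1A and CHAF1B, subunits of the histone chaperone CAF-1, fell by 0.63 ± 0.10 and 0.33 ± 0.09 after both (adjusted p = 0.000768 and 0.0172). UHRF1, which carries DNA methylation through replication, fell by 0.50 ± 0.11 (adjusted p = 0.00479). The call of CHAF1B was lost without control replicate 2 or 3 or combined replicate 1. The heat shock arrays of CHAF1A, CHAF1B and UHRF1 lay below their control arrays, although the main fit called none of these genes after heat shock. With the replicate number as a block, and with array weights, they were called lower there.

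**Figure D3:**
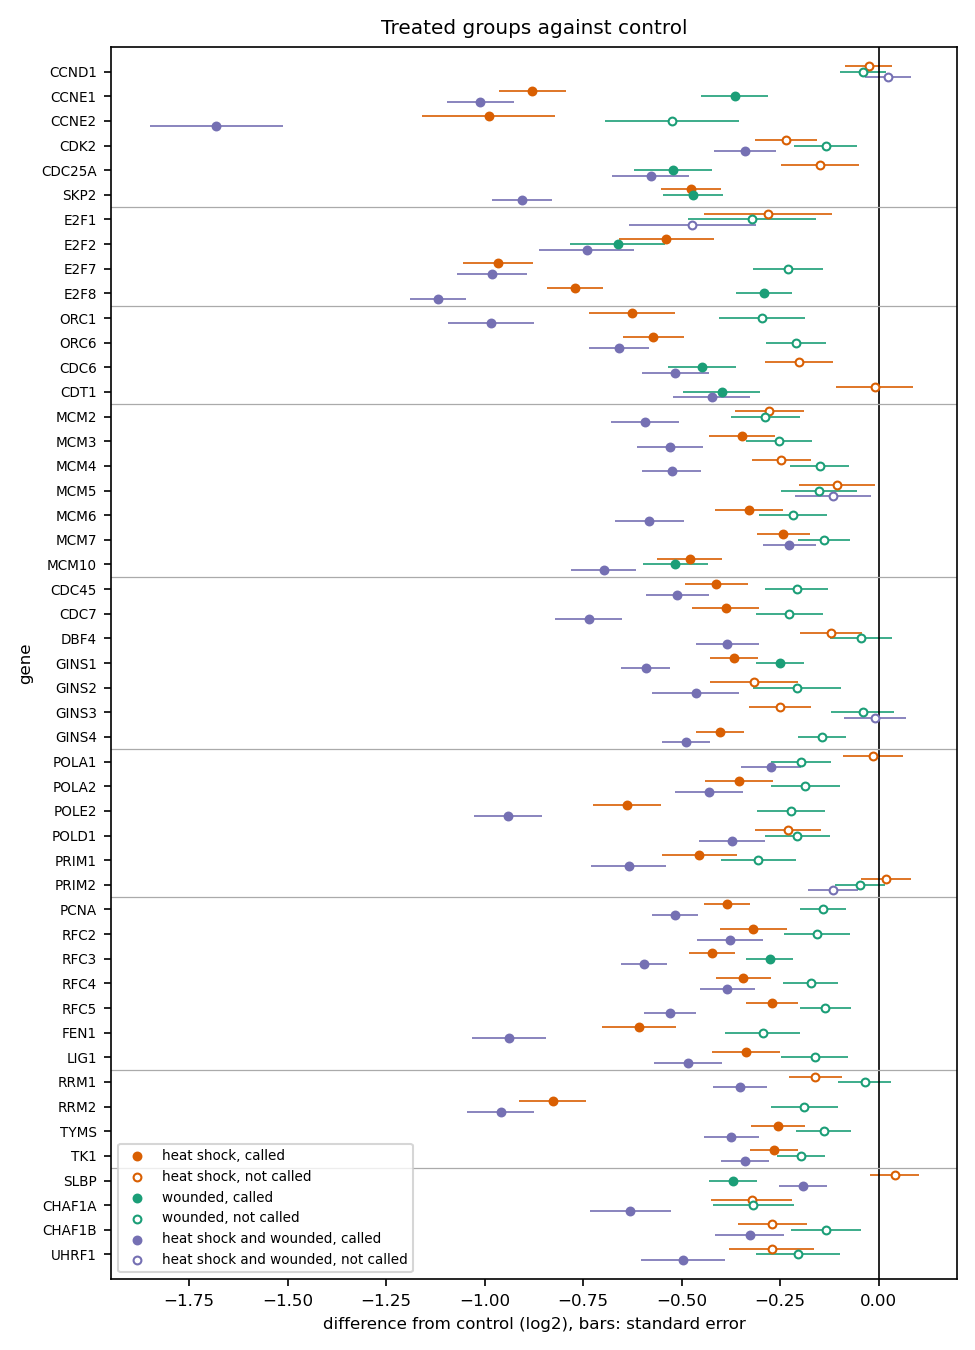
Difference of each treated group from control (log2, bars are SE of the fit, n = 3 arrays a group) for the 49 genes ordered by role; filled points passed an adjusted p under 0.05 and open points did not. The combined group lies farthest left for most genes, CCNE2 reaches -1.68, and the wounded points of CDC25A, CDC6, CDT1 and SLBP lie left of the heat shocked ones.

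Heat shocked and wounded cells were also compared directly, a difference that takes no mean from the control arrays, although these enter the estimate of spread. In this comparison 8 of the 49 genes were lower after heat shock, against 6.01% of all genes, and 3 were higher, against 4.51%. E2F7 was 1.67-fold lower after heat shock than after wounding (-0.74 ± 0.09, adjusted p = 0.000275) and RRM2 1.56-fold lower (-0.64 ± 0.09, adjusted p = 0.000469). CCNE1 (-0.52 ± 0.09, adjusted p = 0.00195), E2F8, POLE2, ORC6, GINS4 and PCNA were the others that were lower. The 3 that were higher after heat shock were SLBP (0.41 ± 0.06, adjusted p = 0.00102), CDT1 (0.39 ± 0.10, adjusted p = 0.0241) and CDC25A (0.37 ± 0.10, adjusted p = 0.0287). The calls of CDC25A, CDT1, GINS4 and PCNA were each lost in 3 to 5 of 12 fits that left out 1 array. CDC25A lost it without any 1 of the heat shock arrays or wounded replicate 1 or 2, and CDT1 without heat shock replicate 3 or wounded replicate 1 or 2. GINS4 lost it without heat shock replicate 1 or wounded replicate 1 or 3, and PCNA without heat shock replicate 1 or 2 or wounded replicate 2. The other 7 calls held in all 12. With the probe set of largest interquartile range, which is another one for PCNA, its difference was 0.006 (adjusted p = 0.992). The second probe set of E2F7 differed by 0.02 ± 0.12 in this comparison (adjusted p = 0.955).

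Cells heat shocked before wounding had lower levels of these genes than cells wounded alone. Against wounded cells, 26 of the 49 were lower in cells with both treatments, against 8.6% of all genes, and 0 were higher, against 6.31%. The median difference was -0.30, where that over all genes was 0.02. CCNE2 fell most, by 1.16 ± 0.17 (adjusted p = 0.000819), followed by E2F8 (-0.83 ± 0.07, adjusted p = 1.96e-05), RRM2 (-0.77 ± 0.09, adjusted p = 0.000109) and E2F7 (-0.75 ± 0.09, adjusted p = 0.000182). Without replicate 2 of both treatments 22 genes were lower and 1, SLBP, was higher, and the median was -0.30. Deviations of same-numbered arrays of these 2 groups correlated weakly (0.103, 0.234 and 0.143). A fit of the 2 groups alone with the replicate number as a block, added after seeing the data, called 17 lower and 0 higher. With the probe set of largest interquartile range RFC3 differed by 0.005 (adjusted p = 0.99). CDC25A and CDT1 differed by -0.06 and -0.03, and neither was called. Of the 26 calls, 19 held without any 1 array. Leaving out wounded replicate 3 was among the fits that ended the calls of MCM2, MCM3, MCM6, CDC45, PRIM1, LIG1 and TYMS.

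Wounding after heat shock moved fewer of them past the test. Against cells that were heat shocked alone, 7 of the 49 were lower after both, against 1.58% of all genes, and 0 were higher, against 2.71%. The median difference was -0.18, where that over all genes was 0.01. The 7 were CCNE2 (-0.69 ± 0.17, adjusted p = 0.0394), CDC25A (-0.43 ± 0.10, adjusted p = 0.0274), SKP2 (-0.43 ± 0.08, adjusted p = 0.00637), CDT1 (-0.41 ± 0.10, adjusted p = 0.034), E2F8, CDC7 and RFC5. This count was fragile. Without replicate 2 of both treatments only SKP2 was called (adjusted p = 0.0282), with the same median of -0.18. The count was also 1 without heat shock replicate 2, 2 without heat shock replicate 3, 3 without wounded replicate 2, and 4 without control replicate 1. Without combined replicate 1, SKP2 and E2F8 were lower and GINS3 was higher. The count was 17 with trended and robust eBayes and 16 among genes with a mean level of at least 5. SKP2 held in all 12 fits.

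The heat shock difference measured without wounding and the one measured with it come from separate arrays, although the fit shares 1 estimate of spread. Across the 49 genes they had a Pearson r of 0.871 and a Spearman rho of 0.777, against an r of 0.771 across all genes. Genes are not independent replicates, so no p is given. The members' medians were -0.32 and -0.30, and 22 genes were called lower in both, 7 only without and 4 only with wounding. The wounding difference without and with heat shock had an r of 0.613 and a rho of 0.612 across the 49, against 0.587 across all genes. Its medians were -0.21 and -0.18, and 4 genes were called lower in both, 7 only without and 3 only with heat shock. Whether the effect of wounding differed with heat shock was tested by the interaction, where 0 of the 49 genes passed, against 0.00552% of all genes, that is 1 gene. At an unadjusted p under 0.05 there were 3 of 49 members and 1302 of 18132 genes. The smallest among the members were E2F2 (0.46 ± 0.17, 95% interval 0.09 to 0.83, adjusted p = 0.625) and GINS3 (0.28 ± 0.11, 95% interval 0.04 to 0.53, adjusted p = 0.632). Without replicate 2 of both treatments they were 0.37 ± 0.17 and 0.20 ± 0.10 (adjusted p = 0.754 and 0.768). A positive value means that the 2 treatments together lowered the gene by less than the sum of their single differences. The median interaction of the 49 was 0.06, where that of all genes was 0.04.

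**Figure D4:**
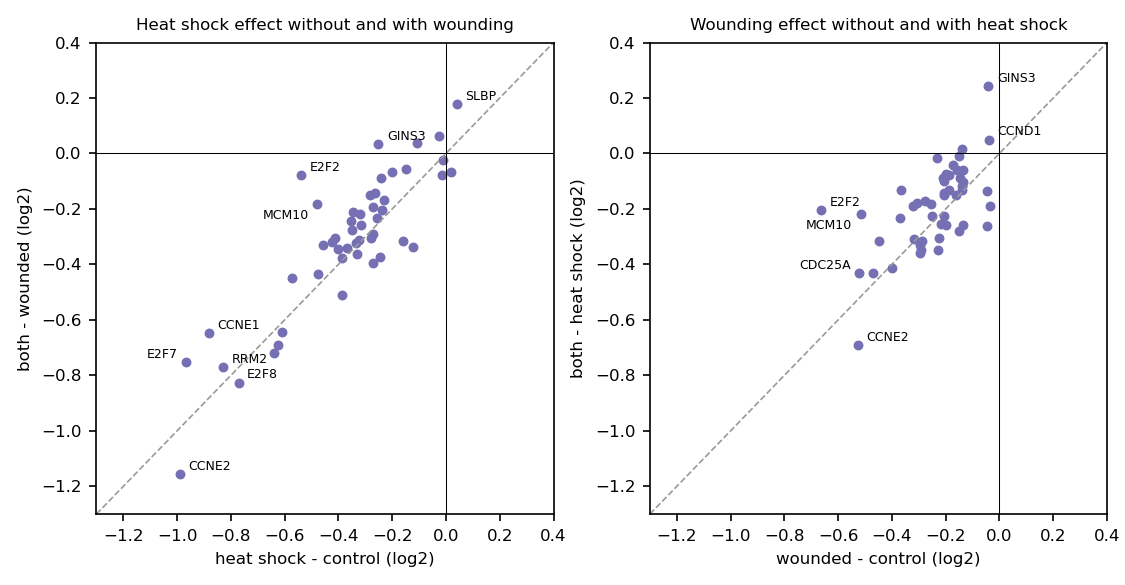
Log2 differences of the 49 genes (points) measured on separate arrays, heat shock without wounding (x) against with wounding (y) on the left, and wounding without heat shock (x) against with heat shock (y) on the right; dashed lines mark equal values. The left points follow the line (r = 0.871) and reach -1.16 for CCNE2, the right points lie nearer to 0 (r = 0.613), and E2F2, MCM10 and GINS3 lie above the lines.

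Other genes of the pathway were read from 6 lists of 105 measured genes. Of these, 31 fell and 4 rose after heat shock, 8 fell and 0 rose after wounding, and 51 fell and 2 rose after both, with medians of -0.18, -0.10 and -0.26. Over all genes the shares lower and higher were 7.92% and 4.93%, 1.31% and 2.27%, and 14.4% and 8.66%. Among 37 other replisome and origin genes, 25 fell after both, led by DNA2 (-1.51 ± 0.08, adjusted p = 1.02e-07), a nuclease of Okazaki fragment processing, ATAD5 (-1.16 ± 0.12, adjusted p = 1.78e-05), which unloads PCNA, and MCM9 (-0.99 ± 0.11, adjusted p = 3.41e-05). Of 27 other G1/S regulators 3 fell and 2 rose after heat shock (11.1% and 7.41%), shares near those over all genes. After both 7 fell, led by E2F5, CCNA2 and CCND3 (-0.67, -0.64 and -0.60), and 1 rose, CDK6 (0.33 ± 0.07, adjusted p = 0.00288). Of 7 inhibitors of G1/S or of licensing, 3 fell and 1 rose after both. CDKN1A, the CDK inhibitor p21, rose by 0.47 ± 0.10 after heat shock (adjusted p = 0.0109) and by 0.87 ± 0.10 after both (adjusted p = 6.95e-05). GMNN, which holds CDT1 inactive, the CDK inhibitor CDKN1B, and FBXO5 fell after both by 0.62, 0.46 and 0.22. Of 12 nucleotide genes 5 fell (led by GMPS, -0.53), of 13 histone genes 7 (ASF1B, -0.64), and of 9 checkpoint genes 4, led by the kinase gene CHEK1 (-0.63 ± 0.08, adjusted p = 9.47e-05).

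Most members had further probe sets. The 49 genes had 128 probe sets, and in a fit over all probe sets with 1 symbol, 59 of the 79 not used above fell after both treatments and 0 rose, against 11% and 7.27% of all 44987 such probe sets. Of the 36 members that fell after both and had another probe set, 29 had another that also fell. After heat shock it was 15 of 24 members, and after wounding 3 of 11. Counted by probe set, 24 of the 79 fell after heat shock, against 4.66% of all probe sets. After wounding 4 of the 79 fell, against 0.611%. CCNE1, CCNE2, CDC25A and CDT1 were among those whose other probe sets fell after both, by 0.86, 1.30, 0.33 to 0.57 and 0.51 to 0.52. For SLBP the second probe set differed by -0.07 ± 0.09 after both (adjusted p = 0.623). Of the genes called in either direction, the share that was lower depended on the scaling. With the deposited scaling, 61.6% of the calls after heat shock and 62.4% of those after both were lower. With cyclic loess in its place, these shares of the calls were 50.4% and 49.9%. With cyclic loess, 24 of the 49 members were lower after heat shock, against 6.12% of all genes, and 40 after both, against 10.6%.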

How the data were processed

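RNA of A549 monolayers was hybridised to 12 Affymetrix PrimeView arrays, 3 in each of 4 groups, from 100 ng of total RNA per array, per the labels' protocols. The table the authors deposited holds 1 log2 level per probe set and array. The submitters' processing notes name RMA and Affymetrix Expression Console. RMA adjusts for background, gives the probe intensities of every array the same distribution and then combines the probes of a set. The resulting probe set levels can still differ in spread between arrays, and RMA can compress differences of dim probe sets. The program's version is not given in the sources used here, and array number limits the precision. Of 49293 probe sets, 1 with a missing value was left out, and 44987 carried 1 gene symbol, 1832 several and 2473 none listed. RefSeq identifiers of GRCh38.p14 matched 44960 and changed 0 symbols. A few genes of the pathway and marker lists were not analysed here.

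limma 3.58.1 (R 4.3.3) fitted 1 mean per group over all 12 arrays and 18132 genes (lmFit and eBayes, 8 residual degrees of freedom), with Benjamini-Hochberg adjustment over all genes in each of 7 comparisons. The labels name no pairs of samples. Deviations of same-numbered arrays from their group means were correlated. Only the wounded groups with and without heat shock had all their pairs over 0.1 (0.103, 0.234 and 0.143). Single pairs of other groups also passed it, at 0.125 and 0.187 for control with heat shock and 0.225 for heat shock with wounding alone. These values do not establish a pairing. The procedure was tested on simulated data first. Of 50 genes lowered by each size after both treatments, 9 were called at -0.3, 44 at -0.5, 46 at -0.7 and 50 at -1 (log2). Of all calls there, 6.88% were false. Falls near -0.3 were thus often missed, so a gene not called may still have changed. Far fewer genes were changed there than were called in the data, so these shares need not hold for the data. Genes were called at an adjusted p under 0.05, and ± is the SE. Values on every array are given for the 12 members with the largest called difference after both treatments, the 4 largest after wounding, the 2 with the smallest interaction p, every member called higher in any comparison, and CCND1, CCNE1, CDK2, E2F1, PCNA, MCM2 and RRM1. Of each pathway list, up to 3 called genes per direction are named. Genes named for a lost call, a disagreeing probe set or a missing call were chosen after their values were seen. The members and lists were chosen with earlier results of these data known.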

Additional observations from a re-analysis of the deposited data

How the results depend on the processing

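The number of members called was recomputed under other settings for each comparison. At an adjusted p under 0.01 it was 19 of 29 after heat shock, 4 of 11 after wounding, 1 of 7 for both against heat shock and 7 of 11 for heat shock against wounding. With 1.5-fold required it was 8 after heat shock, 1 after wounding, 18 of 44 after both, 8 of 26 for both against wounding, 1 for both against heat shock and 2 for heat shock against wounding. With array weights it was 24 after wounding and 18 for heat shock against wounding. The probe set with the largest interquartile range gave 4 after wounding and 4 for both against heat shock. That last count was also 4 with quantile normalization repeated, 4 with cyclic loess, 1 with only the compared groups, 17 with trended and robust eBayes and 16 among genes with a mean level of at least 5. Leaving out 1 array gave 19 to 33 after heat shock, 3 to 13 after wounding, 40 to 45 after both, 19 to 27 for both against wounding, 1 to 8 for both against heat shock, 8 to 13 for heat shock against wounding, and 0 for the interaction.

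Over all genes, array weights gave 3871 calls after heat shock in place of 2330, 1436 after wounding in place of 648, and 3381 in place of 1906 for heat shock against wounding. An adjusted p under 0.01 gave 1114, 303, 2533 (of 4180 after both), 1279 (of 2704 for both against wounding), 371 (of 779 for both against heat shock) and 927, in the order of the comparisons. A 1.5-fold requirement gave 471, 232, 1088, 525, 254 and 444. The compared groups alone gave 1663 for both against wounding and 300 for both against heat shock. The interaction had 1 call, 2 with trended and robust eBayes, and 0 with a mean level of at least 5 or the mean over probe sets. Leaving out 1 array gave 1438 to 2594, 306 to 722, 3088 to 4400, 1649 to 2936, 498 to 790, 1182 to 2174, and 1 to 2 for the interaction.

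Of 18 same-numbered pairs, 6 had deviations correlated over 0.1 (range -0.187 to 0.234), and only the wounded groups with and without heat shock had all their pairs over it. With a replicate block, 33, 11, 45, 27, 7 and 13 members were called, and 0 in the interaction. A block within those 2 groups alone, chosen after seeing the data, gave 17 members and 1370 genes for both against wounding, where these groups alone gave 21 members without the block. Of 3072 recomputed values of called member differences, 2734 kept direction and side of the threshold, 336 lost the threshold and 2 reversed. The latter were RFC3 for both against wounding (0.005) and PCNA for heat shock against wounding (0.006), both under the probe set with the largest interquartile range, where another probe set is read. The median of the members for both against wounding was -0.205 without wounded replicate 3, and the interaction's was 0.125 with array weights. No member was called higher than control under any setting tried. The cause of these moves was not tested. Precision was limited by 3 arrays a group, and no detection p was at hand.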
